A study of Mus musculus with 12 samples.

Results

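The genes described here are 41 genes of mitosis: the cyclins and kinases that carry a cell into division, the proteins that join chromosomes to the spindle, the spindle motors and the proteins that cut the daughter cells apart. They were taken by name from a list that was drawn up with earlier results of these data known and that sets no threshold on a measured value, and all 41 were found among the 26202 gene rows of the table. All 41 reached at least 10 CPM (reads of a gene scaled to a fixed total of reads in genes) in at least 3 of the 12 libraries and were tested among 9121 genes. RNA-seq was performed on 4 groups of 3 libraries each: TH2 Itgav KO, TH2 control, TH1 Itgav KO and TH1 control. Itgav encodes the integrin αv chain, which pairs with β3 to form the receptor αvβ3. All cells were naïve CD4+ T cells of the mouse spleen, on a C57BL/6 background, that carried Cd4CreERT2, a Cre recombinase made in CD4-expressing cells and active only with tamoxifen, and the αv-deficient cells also carried Itgav fl/fl. They were stimulated through CD3 and CD28 with IL-2, under TH2 conditions (IL-4 and an antibody to interferon-γ) or TH1 conditions (IL-12 and an antibody to IL-4), and live CD4+ cells were sorted on day 5. The study's methods list hydroxytamoxifen among the additions to its mouse TH cultures, without naming the sequenced ones. No source used here states mouse ages, the drug treatment of the sequenced cultures or a gate on αv. The labels number the libraries but name neither mouse nor culture, so p-values reflect only how far these samples differ within a group, and that spread may be technical.

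A dividing cell makes most of these transcripts in G2 and M phase and little of them in G1. Cyclin A2 and the B cyclins activate the kinase Cdk1, which starts mitosis, and the kinetochore, built on centromeres marked by the histone variant Cenpa, then binds spindle microtubules. The spindle checkpoint holds back the anaphase promoting complex, with its activator Cdc20, until every chromosome is attached. Many of these genes share promoter elements read by the DREAM and MuvB complexes and by NF-Y, among them the cell cycle homology region (TTTGAA is 1 of its forms) and the CCAAT box. Stimulated T cells in culture divide fast, so these genes are high in them. In bulk RNA, fewer cells in G2 and M phase and less of these transcripts per such cell cannot be told apart.

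Promoter windows were read from RefSeq (GRCm38.p6, 250 bases before to 50 bases after the start of each gene) to show what the members share beyond their roles. Of the 41 genes, 34 matched by symbol. TTTGAA, on either strand, was present in the windows of 26 of these 34 genes (76.5%), CCAAT on either strand in 27 (79.4%) and both in 23 (67.6%). Among the 7423 genes tested that had a window, TTTGAA was present in 14.3%, CCAAT in 43.2% and both in 6.05%, and among all 27025 genes with a window the shares were 20.2%, 41.1% and 7.97%. A TTTGAA and a CCAAT overlapped at 1 place in the members' windows. The match is of letters only. Below are 6 stretches, chosen from members whose values are given further on and whose windows contained TTTGAA. Each runs 5′ to 3′ from 170 bases before the RefSeq start through 30 bases from it on, with every TTTGAA or CCAAT and their reverse complements (TTCAAA and ATTGG) in capitals.
Cdk1 (chr10:69352883-69353082, minus strand): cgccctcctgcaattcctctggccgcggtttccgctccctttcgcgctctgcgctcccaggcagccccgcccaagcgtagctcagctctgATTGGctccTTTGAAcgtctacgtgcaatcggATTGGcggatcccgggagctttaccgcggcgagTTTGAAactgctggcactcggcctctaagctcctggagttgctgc
Cdc20 (chr4:118437314-118437513, minus strand): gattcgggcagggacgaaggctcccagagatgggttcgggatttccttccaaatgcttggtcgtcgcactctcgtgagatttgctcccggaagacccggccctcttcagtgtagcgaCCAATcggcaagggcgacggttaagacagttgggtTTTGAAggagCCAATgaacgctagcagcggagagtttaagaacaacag
Cenpf (chr1:189688057-189688256, minus strand): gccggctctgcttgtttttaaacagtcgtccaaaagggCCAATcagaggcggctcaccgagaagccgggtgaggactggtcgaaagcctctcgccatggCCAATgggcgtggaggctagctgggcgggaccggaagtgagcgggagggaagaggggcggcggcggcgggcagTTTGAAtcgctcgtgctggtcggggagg
Hmmr (chr11:40733408-40733607, minus strand): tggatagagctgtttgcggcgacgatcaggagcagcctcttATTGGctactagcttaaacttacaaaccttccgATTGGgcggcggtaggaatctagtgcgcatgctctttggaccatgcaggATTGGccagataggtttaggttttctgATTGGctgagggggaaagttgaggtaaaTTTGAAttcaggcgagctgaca
Kif4 (chrX:100625895-100626094, plus strand): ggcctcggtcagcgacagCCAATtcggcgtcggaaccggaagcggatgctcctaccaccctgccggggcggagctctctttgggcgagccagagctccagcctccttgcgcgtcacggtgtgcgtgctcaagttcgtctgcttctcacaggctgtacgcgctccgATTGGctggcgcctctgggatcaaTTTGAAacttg
Mki67 (chr7:135716350-135716549, minus strand): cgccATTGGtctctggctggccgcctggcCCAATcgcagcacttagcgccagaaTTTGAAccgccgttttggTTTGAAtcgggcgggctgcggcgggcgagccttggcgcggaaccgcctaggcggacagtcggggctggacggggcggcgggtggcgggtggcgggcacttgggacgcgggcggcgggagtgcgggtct
The Cdk1 and Mki67 stretches each held TTTGAA at 2 places and the other 4 at 1 place, and Hmmr held CCAAT at 4 places against 2 in each of the others. The windows of Ccnb1, Nek2, Birc5, Cenpe, Nuf2, Bub1, Mad2l1 and Nusap1 did not contain these letters of TTTGAA.

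Each library had 6344185 to 13312235 reads in genes, recovered from the spacing of its low values, so 3 reads were worth 0.225 to 0.473 CPM, well under the levels reported below. Itgav was at 55.2, 43.5 and 60.5 CPM in TH2 Itgav KO libraries, against 250, 195 and 313 CPM in TH2 control libraries, and at 42.8, 21.3 and 28.1 CPM in TH1 Itgav KO libraries, against 227, 228 and 154 CPM in TH1 control libraries, which fits the labels. Cd4 and the CD3 genes were high in all 12 libraries. Ifng and Tbx21 together did not exceed 23.7 CPM in any TH2 library, and Gata3, Il4, Il5 and Il13 together did not exceed 31.4 CPM in any TH1 library. Myeloid markers summed to at most 6.05 CPM and erythroid markers to at most 3.31 CPM, and Klrb1c and Ncr1 were at 0 throughout, with Cd8b1 at 3.44 to 17.7 CPM. The 5 B cell markers summed to 9.15 to 12 CPM in TH2 Itgav KO libraries, against 3.75 to 7.12 CPM in TH2 control libraries, mostly Cd79b, with Ms4a1 and Pax5 at 0 in the TH2 Itgav KO libraries. The precursor of ribosomal RNA, Rn45s, took 0.751% to 5.84% of reads and was highest in TH2 control library 1. These values moved with the groups or with 1 library. The part of the marker genes in the results below was not tested, and a fit without Rn45s is described further on.

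The 41 genes together were lower in αv-deficient TH2 cells and higher in αv-deficient TH1 cells than in their controls. Their CPM summed to 6626, 5095 and 5731 in the 3 TH2 Itgav KO libraries, against 6375, 8107 and 7934 in the TH2 control libraries. The sums were 8768, 6995 and 6908 in TH1 Itgav KO libraries, against 5820, 5728 and 6369 in TH1 control libraries. The groups overlapped in TH2 cells, where TH2 control library 1 had the lowest control sum, and did not overlap in TH1 cells. Mki67, the gene of the proliferation marker Ki-67, made up 34% of the sum in TH2 Itgav KO cells, 33.1% in TH2 control cells, 23.6% in TH1 Itgav KO cells and 27.7% in TH1 control cells. Without it the sums averaged 3840 ± 524 CPM in TH2 Itgav KO cells, against 5000 ± 713 in TH2 control cells, and 5774 ± 626 in TH1 Itgav KO cells, against 4319 ± 383 in TH1 control cells (SD, n = 3 each).

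**Figure D1:**
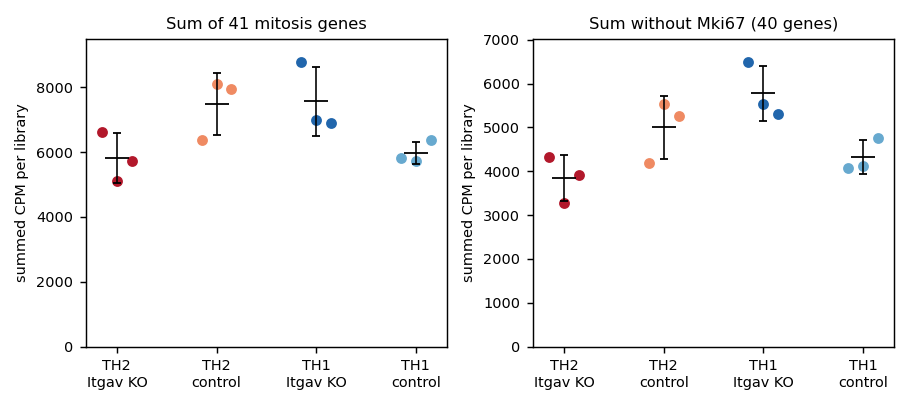
Summed CPM of the 41 mitosis genes (left) and of the 40 without Mki67 (right) in each library of the 4 groups, as points, with the group mean and SD in black. TH1 Itgav KO libraries (6908 to 8768 CPM) lay above all TH1 control libraries (5728 to 6369), while TH2 Itgav KO libraries (5095 to 6626) overlapped with TH2 control libraries (6375 to 8107).

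Within a group the members tended to move together. TH2 Itgav KO library 2 had 34 of the 41 genes below its group mean, with a median deviation of -0.25 on the log2(CPM + 1) scale, and TH2 control library 1 had 31 below, also with a median of -0.25. In these libraries genes of S phase had medians of -0.12 and -0.19, and all genes tested -0.03 and -0.07. Over the 12 libraries, the deviations of pairs of members from their group means had a median correlation of 0.31, and 74.9% of the pairs were above 0. No such correlation was computed for other genes. The members share these libraries, so a count of members that point the same way is not a count of independent observations.

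Per length, the transcripts covered a wide range. Divided by the merged exon length of GENCODE M21, Mki67 was highest, at 197 CPM per kb in TH2 Itgav KO cells, 246 in TH2 control cells, 177 in TH1 Itgav KO cells and 164 in TH1 control cells. Ube2c, the ubiquitin-conjugating enzyme of the anaphase promoting complex, had 93.8, 110, 136 and 93.7 CPM per kb in the same 4 groups. Ccnb2, cyclin B2, had 86.3, 92.1, 176 and 116 CPM per kb, below Ube2c in both TH2 groups and above it in both TH1 groups. Top2a, the topoisomerase that untangles sister chromatids, had 83.5, 87.8, 103 and 70.1 CPM per kb. Kif20a, a motor of the spindle midzone, and Nuf2, a subunit of the NDC80 complex that grips microtubules, were among the lowest, at 1.98 and 2.08 CPM per kb in TH2 Itgav KO cells. Strand was not stated for the counting, and exons of 12 members overlap another annotated gene, 11 of them on the opposite strand (Ccna2 with Exosc9, Cdc20 with Elovl1, Nusap1 with Oip5, Kif4 with Pdzd11, Ube2c with Tnnc2 and others), so some reads at these genes could come from the partner. Ccnb1, Ccnb2 and Kif4 also have a named pseudogene.

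In αv-deficient TH2 cells 3 of the 41 genes were called lower and none higher at an adjusted p of 0.05: Cenpe and Cenpf, both large proteins of the outer kinetochore corona, and Hmmr, which binds spindle microtubules and hyaluronan. That is 7.32% of the members called lower, beside 1.67% of all 9121 genes tested called lower and 1.92% called higher. The test throughout was limma on log2(CPM + 1), fitted over all 12 libraries, with Benjamini-Hochberg adjustment over all genes tested. Cenpe, the motor that walks chromosomes to the spindle equator, was at 366, 218 and 220 CPM in TH2 Itgav KO libraries, against 344, 562 and 492 CPM in TH2 control libraries. TH2 Itgav KO library 1 lay above TH2 control library 1, and the other 4 libraries did not overlap. Cenpe fell by 0.81 ± 0.20 on the log2 scale (SE, adjusted p = 0.0296). In TH1 cells it was at 462, 337 and 295 CPM in KO libraries and 364, 350 and 375 CPM in control libraries, a change of -0.02 ± 0.20 (adjusted p = 0.992).

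Cenpf was at 262, 223 and 207 CPM in TH2 Itgav KO libraries, against 285, 451 and 370 CPM in TH2 control libraries, with no overlap. It fell by 0.66 ± 0.18 (adjusted p = 0.0492). Hmmr was at 151, 97.3 and 108 CPM in TH2 Itgav KO libraries, against 147, 247 and 221 CPM in TH2 control libraries, and fell by 0.78 ± 0.21 (adjusted p = 0.0463). As for Cenpe, the overlap came from library 1 of both groups. The TH1 values were 377, 267 and 249 CPM in KO libraries and 299, 225 and 251 CPM in control libraries for Cenpf, and 190, 137 and 146 CPM in KO libraries and 108, 131 and 150 CPM in control libraries for Hmmr, and neither passed the test in TH1 cells (adjusted p = 0.818 and 0.752).

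No other member passed in TH2 cells. The lowest estimate was that of Bub1b, the checkpoint kinase BubR1, at 37.3, 14.2 and 22.7 CPM in TH2 Itgav KO libraries, against 38.3, 53.8 and 49.3 CPM in TH2 control libraries, a change of -0.99 ± 0.31 (adjusted p = 0.0777). In all, 35 of the 41 estimates were below 0, with a median of -0.41, beside 46.6% of all genes tested below 0 and a median of 0.04. At an unadjusted p under 0.05, 16 members were lower and none higher, beside 19.1% of all genes tested in either direction. The centromere and kinetochore genes had the lowest median by role, -0.60 over 6 genes, followed by the chromosomal passenger complex, the kinase complex that corrects wrong attachments, at -0.50 over 4 genes. Estimates above 0 belonged to Ndc80 (0.39), Kif4 (0.30), Prc1 (0.15), Ect2 (0.10), Dlgap5 (0.09) and Plk1 (0.02), none of which passed. The groups did not overlap for 12 members, all lower in KO libraries (8.76% of all genes tested), and for none in the other direction (9.97% of all genes tested). Each of the 3 calls was lost without TH2 Itgav KO library 2, TH2 Itgav KO library 3 (where Cenpa was called in their place), TH2 control library 2 or TH2 control library 3. Without TH2 Itgav KO library 1, Bub1b was called in place of Cenpf, and without TH2 control library 1 Ccnb1 was called as well, for 4 calls. Calls of Cenpf and Hmmr were also lost without some TH1 libraries, which lend the fit its estimate of spread, so 1 member was called without TH1 Itgav KO library 2 or 3 or any TH1 control library.

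In αv-deficient TH1 cells, 1 of the 41 genes was called, Cdca3, which helps to degrade the kinase Wee1 so that cells can enter mitosis. Cdca3 was at 174, 135 and 152 CPM in TH1 Itgav KO libraries, against 87.6, 69.9 and 86.8 CPM in TH1 control libraries, with no overlap, and rose by 0.91 ± 0.22 (adjusted p = 0.0492). This is 2.44% of the members, beside 0.329% of all genes tested called higher and 0.515% called lower. In TH2 cells Cdca3 was at 63.2, 57.4 and 94.4 CPM in KO libraries and 71.7, 108 and 91 CPM in control libraries, which overlapped (-0.35 ± 0.22, adjusted p = 0.408).

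The next members by adjusted p in TH1 cells were Top2a and Kif4, a motor on chromosome arms that also works at the midzone. Top2a was at 1037, 928 and 814 CPM in TH1 Itgav KO libraries, against 597, 587 and 711 CPM in TH1 control libraries, with no overlap, a change of 0.55 ± 0.14 (adjusted p = 0.0663). Kif4 was at 119, 134 and 99.9 CPM in TH1 Itgav KO libraries, against 75.6, 53.4 and 74.8 CPM in TH1 control libraries, again with no overlap, a change of 0.79 ± 0.21 (adjusted p = 0.0785). Neither passed the threshold. In TH2 cells Top2a was at 856, 650 and 752 CPM in KO libraries and 660, 852 and 862 CPM in control libraries, a change of -0.07 ± 0.14.

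Over the 41 genes, 37 estimates were above 0 in TH1 cells, with a median of 0.38, beside a median of 0.00 over all genes tested. At an unadjusted p under 0.05, 11 members were higher and none lower, beside 10.1% of all genes tested in either direction. All 9 genes of mitotic entry and all 8 of spindle assembly had estimates above 0, with medians of 0.54 and 0.35. The groups did not overlap for 16 members, all higher in KO libraries (10.2% of all genes tested), and for none in the other direction (10.6% of all genes tested). The call of Cdca3 was lost without any 1 of the 6 TH1 libraries, without TH2 Itgav KO library 1 or without TH2 control library 3, and 2 members were called without TH2 control library 1 or 2. With only the TH1 libraries in the fit, 8 members were called higher. Over all genes, 367 of 8366 were then called in either direction, in place of 77 of 9121. With only the TH2 libraries in the fit, no member was called in TH2 cells, in place of 3. Over all genes, 125 of 8456 were then called, in place of 327 of 9121.

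**Figure D2:**
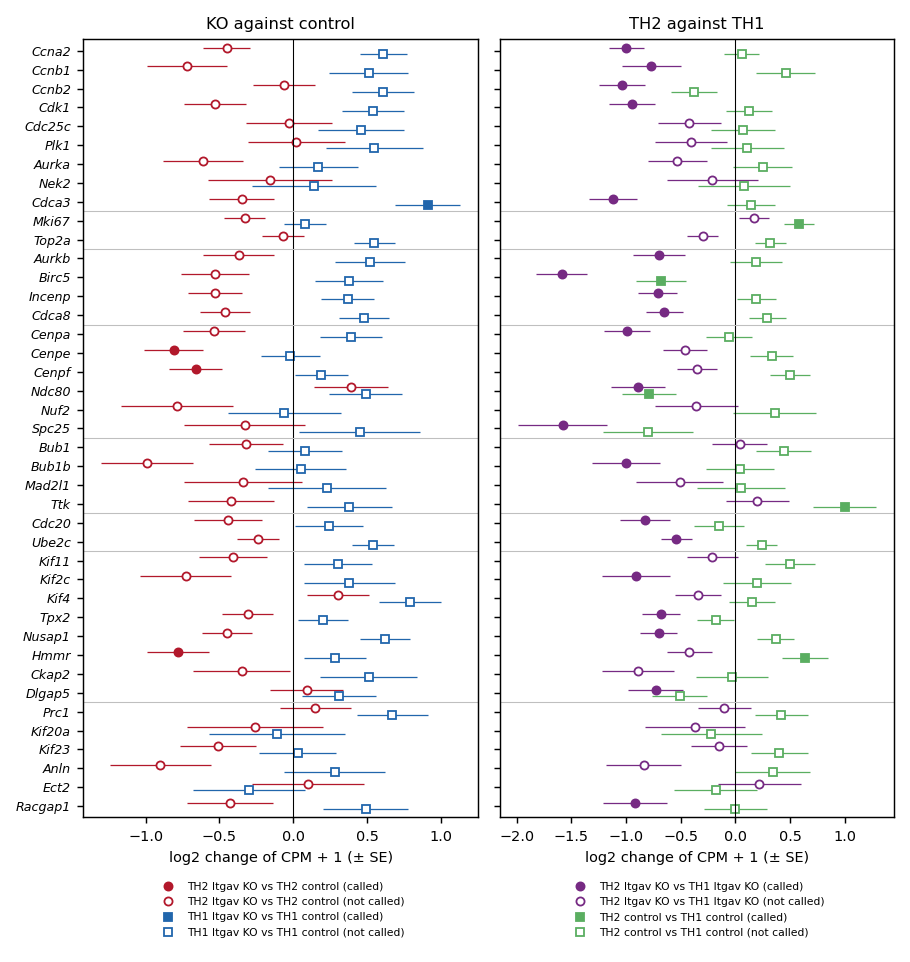
Log2 change of CPM + 1, with SE, for each of the 41 genes, ordered by role from mitotic entry (top) to cytokinesis (bottom), with lines between roles: KO against control (left; red circles TH2, blue squares TH1) and TH2 against TH1 (right; purple circles KO cells, green squares control cells). Filled symbols passed the threshold; 35 of the red circles lie below 0, 37 of the blue squares above 0, and 20 of the purple circles are filled, all below 0.

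The KO effects in the 2 subsets went in opposite directions for most members. Estimates were below 0 in TH2 cells and above 0 in TH1 cells for 32 of the 41 genes, a combination seen in 20.4% of all genes tested, below 0 in both for 3, above 0 in both for 5 and the reverse for 1 (Ect2). These 2 comparisons share no library. Tested directly as the KO effect in TH2 cells minus that in TH1 cells, 40 of the 41 differences were below 0, with a median of -0.78, beside 47% of all genes tested below 0 and a median of 0.04. Only Ccna2, cyclin A2, passed the test, called lower beside 0.143% of all genes tested called lower and 0.263% called higher (13 and 24 genes, and 13 and 15 under TMM scaling). At an unadjusted p under 0.05, 22 members were below 0 and none above, beside 11% of all genes tested in either direction. For 5 members, Ccna2, Cdca8, Cdk1, Incenp and Nusap1, every KO library lay below every control library in TH2 cells and above every control library in TH1 cells (0.537% of all genes tested).

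Ccna2 (chr3:36564865-36572150, minus strand, GRCm38) was at 139, 143 and 116 CPM in TH2 Itgav KO libraries, against 194, 155 and 199 CPM in TH2 control libraries. It was at 307, 234 and 264 CPM in TH1 Itgav KO libraries, against 167, 171 and 188 CPM in TH1 control libraries. The change was -0.45 ± 0.16 in TH2 cells and 0.61 ± 0.16 in TH1 cells, and the difference of -1.06 ± 0.22 had an adjusted p of 0.039. Neither change alone passed (adjusted p = 0.122 in TH2 cells and 0.0792 in TH1 cells). The call of the difference was lost without any 1 library other than TH2 control library 2, and without TH2 control library 1 the members called were Ccnb1, Cdca3 and Hmmr in its place.

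Cdk1, the kinase that drives mitosis, was at 86.4, 60.5 and 91.7 CPM in TH2 Itgav KO libraries, against 106, 141 and 98.5 CPM in TH2 control libraries, and at 161, 143 and 154 CPM in TH1 Itgav KO libraries, against 97.1, 87.2 and 135 CPM in TH1 control libraries. Neither pair of groups overlapped. The difference of the KO effects was -1.07 ± 0.29 (adjusted p = 0.123). Nusap1, which bundles spindle microtubules, was at 183, 146 and 124 CPM in TH2 Itgav KO libraries, against 219, 193 and 201 CPM in TH2 control libraries, and at 280, 248 and 207 CPM in TH1 Itgav KO libraries, against 136, 188 and 154 CPM in TH1 control libraries. Its difference was -1.07 ± 0.25 (adjusted p = 0.0585). Ndc80, by contrast, had estimates above 0 in both subsets and a difference of -0.10 ± 0.35, with an interval of -0.82 to 0.63.

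**Figure D3:**
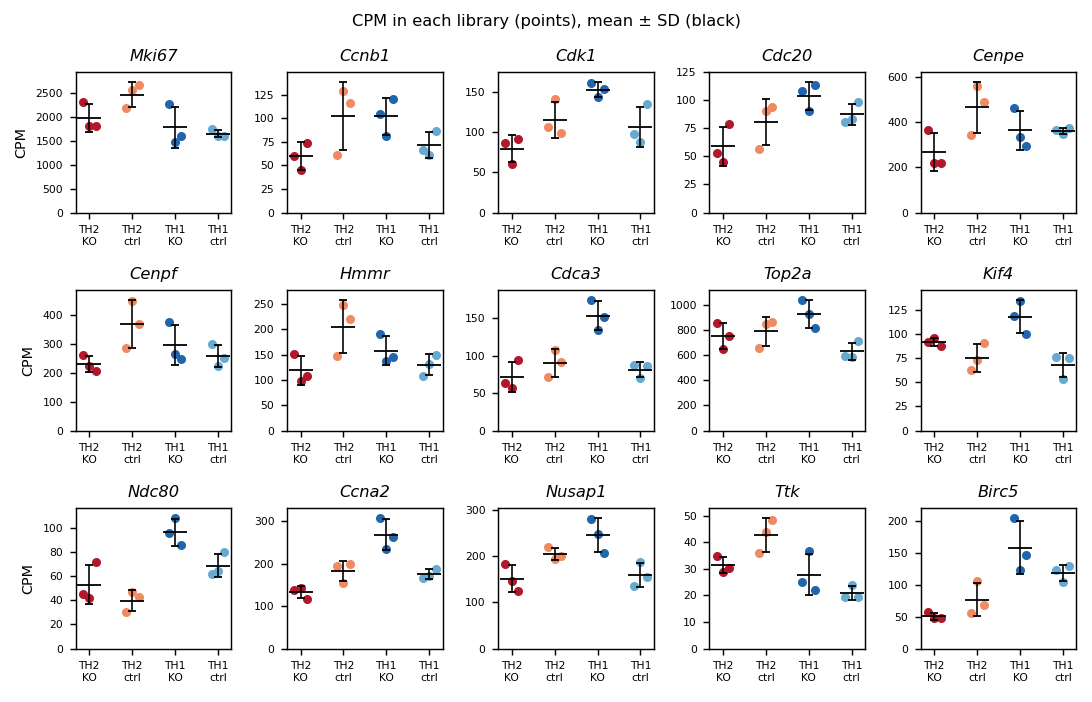
CPM of 15 mitosis genes in each library (points), with the mean and SD of each group in black, from left to right TH2 Itgav KO, TH2 control, TH1 Itgav KO and TH1 control in each panel (KO and ctrl on the axis). For Ccna2 and Nusap1 the TH2 Itgav KO points lie below all TH2 control points and the TH1 Itgav KO points above all TH1 control points, and Birc5 is at 47.3 to 57.5 CPM in TH2 Itgav KO libraries against 123 to 205 CPM in TH1 Itgav KO libraries.

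Averaged over both subsets, 1 member was called, Kif4, which was higher. This is 2.44% of the members, close to the 2.18% of all genes tested called higher, and 2.04% of all genes were called lower. In TH2 cells Kif4 was at 91.8, 96 and 87.5 CPM in KO libraries and 62.2, 72.7 and 90.9 CPM in control libraries. With the TH1 values given above, the mean KO effect was 0.54 ± 0.15 (adjusted p = 0.036). The median over the 41 genes was -0.05, and 23 were below 0. The call was lost without any 1 library other than TH2 Itgav KO library 3 or TH2 control library 3. Without TH2 Itgav KO library 1 or TH2 control library 1, Cenpe was called lower in its place.

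The largest number of members differed between the αv-deficient cells of the 2 subsets. In TH2 Itgav KO cells 20 of the 41 genes were called lower than in TH1 Itgav KO cells and none higher, 48.8% of the members, beside 11.6% of all genes tested called lower and 12.2% called higher. All 4 genes of the chromosomal passenger complex (Aurkb, Birc5, Incenp and Cdca8), both cofactors of the anaphase promoting complex (Cdc20 and Ube2c) and 5 of 9 genes of mitotic entry (Ccna2, Ccnb1, Ccnb2, Cdk1 and Cdca3) were among them. From the kinetochore and checkpoint came Cenpa, Ndc80, Spc25 and Bub1b, and from the spindle and midzone Kif2c, Tpx2, Nusap1, Dlgap5 and Racgap1.

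Birc5, the survivin subunit that brings the passenger complex to centromeres, was at 57.5, 47.3 and 48.1 CPM in TH2 Itgav KO libraries, against 205, 123 and 148 CPM in TH1 Itgav KO libraries. It fell by 1.59 ± 0.23 (adjusted p = 2.76e-05), the largest change of a member. In control cells Birc5 was at 55.7, 106 and 68.4 CPM in TH2 libraries, against 123, 105 and 130 CPM in TH1 libraries. There it was called lower too, by 0.68 ± 0.23 (adjusted p = 0.0477).

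Ccna2 fell by 1.0 ± 0.16 (adjusted p = 7.17e-05) and Cdca3 by 1.12 ± 0.22 (adjusted p = 0.000613), from the library values given above, which did not overlap. Ccnb1, cyclin B1, was at 60.5, 44.8 and 74.2 CPM in TH2 Itgav KO libraries, against 105, 81.1 and 120 CPM in TH1 Itgav KO libraries, and fell by 0.77 ± 0.27 (adjusted p = 0.039). Its control values were 61.3, 129 and 116 CPM in TH2 libraries and 65.9, 60.8 and 87 CPM in TH1 libraries. They overlapped, and the change of 0.46 ± 0.27 did not pass (adjusted p = 0.26).

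Cdc20 was at 53.4, 45.2 and 78.4 CPM in TH2 Itgav KO libraries, against 108, 89.9 and 113 CPM in TH1 Itgav KO libraries, and fell by 0.83 ± 0.23 (adjusted p = 0.0127). In control cells it was at 56.9, 90.5 and 93.6 CPM in TH2 libraries and 80.8, 83.5 and 98.2 CPM in TH1 libraries (-0.15 ± 0.23, adjusted p = 0.717). Cdk1, from the values above, fell by 0.95 ± 0.21 (adjusted p = 0.00188) between KO cells and changed by 0.12 ± 0.21 between control cells (adjusted p = 0.749). The remaining calls ranged from -0.54 (Ube2c) to -1.58 (Spc25, a subunit of the NDC80 complex).

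Between KO cells, 37 of the 41 estimates were below 0, with a median of -0.65, beside 0.01 over all genes tested. The 4 above 0 were Ect2 (0.22), Ttk (0.20), Mki67 (0.17) and Bub1 (0.04), none of which passed. Of the 20 calls, 10 held under all 24 alternatives run (Ccna2, Ccnb2, Cdk1, Cdca3, Birc5, Incenp, Cenpa, Ube2c, Tpx2 and Nusap1). The count was 12 without TH2 Itgav KO library 2, the library with the lowest member values, 13 without TH1 Itgav KO library 1, and 14 to 21 without any other library.

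In control cells the members leaned the other way and by less, with 30 of the 41 estimates above 0. TH2 control cells had 3 members called higher than TH1 control cells (Mki67, Ttk and Hmmr), beside 8.58% of all genes tested, and 2 called lower (Ndc80 and Birc5), beside 9.75%. These shares, 7.32% and 4.88% of the members, were no larger than those of all genes. Mki67 was at 2184, 2564 and 2669 CPM in TH2 control libraries, against 1747, 1604 and 1610 CPM in TH1 control libraries, and rose by 0.58 ± 0.14 (adjusted p = 0.00607). In KO cells it was at 2310, 1815 and 1806 CPM in TH2 libraries and 2282, 1472 and 1597 CPM in TH1 libraries, which overlapped (0.17 ± 0.14, adjusted p = 0.442). The KO effect on Mki67 was -0.33 ± 0.14 in TH2 cells and 0.08 ± 0.14 in TH1 cells. Neither passed (adjusted p = 0.214 and 0.919), and KO and control libraries overlapped in both subsets.

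Ttk, the kinase Mps1 that starts checkpoint signalling, was at 35.8, 43.8 and 48.4 CPM in TH2 control libraries, against 19.3, 23.9 and 19.3 CPM in TH1 control libraries, and rose by 1.0 ± 0.29 (adjusted p = 0.0196). In KO cells it was at 35, 29 and 30.3 CPM in TH2 libraries and 24.9, 36.8 and 21.9 CPM in TH1 libraries. Hmmr rose by 0.64 ± 0.21 (adjusted p = 0.0396), from the values given above, which overlapped by 1 library of each group.

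Ndc80 was at 29.9, 46.7 and 42.4 CPM in TH2 control libraries, against 62.2, 64.2 and 79.8 CPM in TH1 control libraries, and fell by 0.79 ± 0.25 (adjusted p = 0.0272). It was also lower in TH2 Itgav KO cells, at 45.3, 41.8 and 71.5 CPM, than in TH1 Itgav KO cells, at 96.2, 108 and 85.5 CPM (-0.89 ± 0.25, adjusted p = 0.0112). Both calls between control cells, of Ndc80 and Birc5, were lost without TH2 control library 1 or any 1 TH1 control library, and that of Birc5 was lost under 15 of the 24 alternatives in all. The median over the 41 genes was 0.15 between control cells, with 30 above 0. All genes tested had a median of -0.01, with 50.9% below 0. The count of 5 calls was 3 without TH2 control library 3 or TH1 Itgav KO library 3, 2 without TH1 control library 2 or 3, 1 without TH1 control library 1 and 7, all higher in TH2 control cells, without TH2 control library 1.

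**Figure D4:**
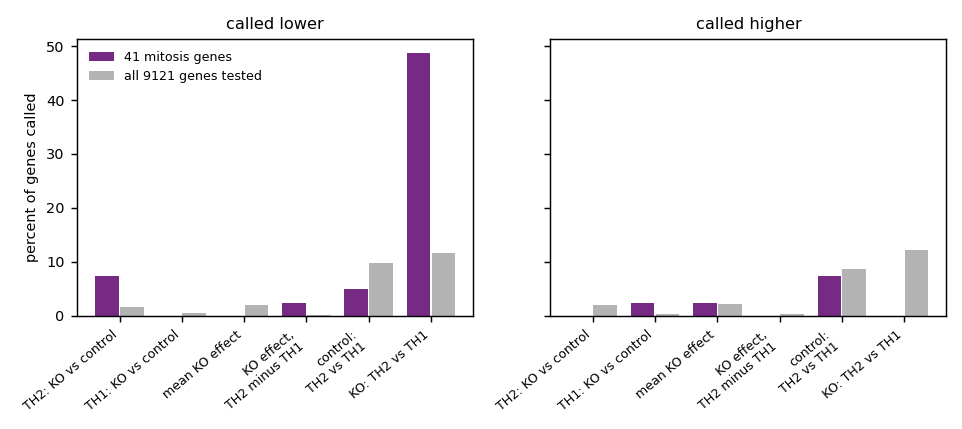
Percent of the 41 mitosis genes (purple) and of all 9121 genes tested (grey) called lower (left) or higher (right) in each of the 6 comparisons. The tallest bar is that of the comparison of TH2 with TH1 Itgav KO cells, where 48.8% of the mitosis genes were called lower, beside 11.6% of all genes; the 2 comparisons of TH2 with TH1 cells share no library with each other but each shares libraries with the KO comparisons.

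Further genes of mitosis, 90 in 6 groups from the inner kinetochore to cytokinesis, of which 83 were tested, showed smaller medians. In TH2 cells the KO effect had a median of -0.17 over these genes. Of the 83, 4 were called lower (Gtse1, Cks1b, Bub3 and Smc2) and 1 higher (Nsl1), beside 1.67% and 1.92% of all genes tested. In TH1 cells the median was 0.22 with none called in limma (adjusted p of 0.0785 for the first, Sgo1). There 11 had an unadjusted p under 0.05, all higher, beside 10.1% of all genes tested in either direction. Gtse1, a microtubule-binding protein of G2 and M phase, averaged 35.3 CPM in TH2 Itgav KO cells, against 73.8 CPM in TH2 control cells, and fell by 1.07 ± 0.24 (adjusted p = 0.0155). Cks1b, a small subunit of Cdk complexes, averaged 80.6 CPM in TH2 Itgav KO cells, against 132 CPM in TH2 control cells, and fell by 0.70 ± 0.17 (adjusted p = 0.0232). Bub3, a checkpoint protein, averaged 74.6 CPM in TH2 Itgav KO cells, against 123 CPM in TH2 control cells, and fell by 0.72 ± 0.18 (adjusted p = 0.0279). The core subunits of the anaphase promoting complex, whose levels vary little over the cell cycle, had medians of -0.04 in TH2 cells and 0.11 in TH1 cells over 14 genes, with none called in limma. At an unadjusted p under 0.05 there were 2 and 1, beside 19.1% and 10.1% of all genes tested. Between KO cells, 17 of the 83 genes were called lower in TH2 than in TH1 cells, beside 11.6% of all genes tested. Only Hjurp, the chaperone that loads Cenpa, was called higher (1.55 ± 0.56, adjusted p = 0.0477), beside 12.2% of all genes tested.

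The medians of the S phase genes had the same signs as those of the 41 members for the KO effect in both subsets. Of 36 tested in the same limma fit, none was called for the KO effect in TH2 cells (median -0.38, 32 below 0) or in TH1 cells (median 0.29, 30 above 0). At an unadjusted p under 0.05, 10 were lower and none higher in TH2 cells, beside 19.1% of all genes tested in either direction. In TH1 cells 6 were higher and 1 lower, beside 10.1%. The difference of the effects had a median of -0.56 with 33 below 0 and none called. At an unadjusted p under 0.05, 16 were below 0 and none above, beside 11% of all genes tested in either direction. Between KO cells, 17 of the 36 were called lower in TH2 than in TH1 cells and none higher, beside 11.6% and 12.2% of all genes tested. Among the 17 were Rrm2 and Rrm1, the subunits of ribonucleotide reductase, at -1.25 ± 0.20 (adjusted p = 7.37e-05) and -0.92 ± 0.15 (adjusted p = 8.56e-05). Rrm2 averaged 368 CPM in TH2 Itgav KO cells, against 849 CPM in TH1 Itgav KO cells, and Rrm1 averaged 338 CPM, against 633 CPM.

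Of 19 regulators of the G2 and M programme, 18 were tested. E2f8, an atypical E2F repressor, averaged 140 CPM in TH2 Itgav KO cells, against 249 CPM in TH2 control cells, and fell by 0.94 ± 0.25 (adjusted p = 0.038). It was the only 1 of the 18 called there, beside 1.67% of all genes tested called lower and 1.92% called higher. No regulator was called by limma for the KO effect in TH1 cells, where 1 had an unadjusted p under 0.05 (Lin54, adjusted p = 0.196). In TH2 control cells, Nfyb, a subunit of the CCAAT-binding factor NF-Y, averaged 98.6 CPM, against 44.6 CPM in TH1 control cells, and rose by 1.15 ± 0.22 (adjusted p = 0.000722). Rb1, the retinoblastoma protein, averaged 131 CPM in TH2 control cells, against 65.8 CPM in TH1 control cells (0.99 ± 0.20, adjusted p = 0.00108). With E2f8 (0.90 ± 0.25, adjusted p = 0.0123), 3 of the 18 were called higher and none lower, beside 8.58% and 9.75% of all genes tested. Nfyb and Rb1 were higher in TH2 Itgav KO than in TH1 Itgav KO cells as well. Nfyb was at 64.8 against 35.9 CPM and Rb1 at 111 against 64.2 CPM (adjusted p = 0.00872 and 0.00657). E2f1 was called the other way, at 14.1 against 36.4 CPM (-1.40 ± 0.41, adjusted p = 0.0173). In all, 3 of the 18 were called higher and 1 lower between KO cells, beside 12.2% and 11.6% of all genes tested. Of the 18 estimates 11 were below 0, with a median of -0.20.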

How the data were processed

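Single-end reads of 50 bases were trimmed by the authors with Trim Galore 0.50 and aligned with STAR 2.6.0a to GRCm38, as the methods and the submitters' processing notes state. The notes also name DESeq2 1.18.1. The gene counter, its strand setting and the annotation were not given in those sources. The authors deposited CPM, counts scaled to a fixed total per library, with an added 0.0001 that was taken off. Since the total is fixed, a gene that takes a large share lowers the others. A second table, with the same values under other column names and with gene coordinates, was not used. Depth was recovered from low values, which were multiples of the worth of 1 read (tolerance 0.1 reads), and floors from it cover counting error only. Chi-square per degree of freedom between replicates was 18.5 to 76.3, so all replicates were counted as separate libraries.

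The 9121 genes that reached 10 CPM in 3 or more libraries were tested two-sided by limma 3.58.1 in R 4.3.3, with a variance trend, on log2(CPM + 1), which understates changes of low genes. A mean was fitted for each of the 4 groups over all 12 libraries (8 residual and 12.5 prior degrees of freedom), with Benjamini-Hochberg adjustment over all genes tested in each of 6 comparisons, with 0.05 as the threshold. The fit was tested on simulated data with a fixed spread and changes larger than the median changes of the members. That test therefore does not bear on calls near the threshold. The members and lists were chosen with earlier results of these data known. Values in every library were given for Mki67, Ccnb1, Cdk1, Cdc20, Cenpe and Cenpf and for the 3 members with the smallest adjusted p in each comparison with a call, and at most 3 genes with the smallest adjusted p were named per further list and comparison. Bub1b, Nsl1, Smc2, Hjurp and the other names outside this rule were chosen after their values were seen. Annotation was GENCODE M21 (GRCm38), in which all 41 members matched. Other pseudocounts, filters, scalings, weights and library sets were tried as alternatives.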

Additional observations from a re-analysis of the deposited data

Results flagged for a closer look

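The KO effect on Ccna2 in TH2 cells minus that in TH1 cells, -1.06 ± 0.22 on the log2 scale, passed the test of the difference itself (adjusted p = 0.039 by limma). Ccna2 was lower in 3 of 3 TH2 Itgav KO libraries than in any TH2 control library and higher in 3 of 3 TH1 Itgav KO libraries than in any TH1 control library. Over the alternatives, the adjusted p ranged between 0.0131 and 0.206 and the difference between -1.17 and -0.96. The groups hold 3 libraries each, too few to test single libraries for standing apart.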

How the results depend on the processing

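In TH2 cells the count of 3 was 1 with a pseudocount of 0.1 CPM, a filter at 1 CPM or array weights, and 0 with no filter, no variance trend, only the TH2 libraries, or without TH2 control 2 and TH2 Itgav KO 3 together. In TH1 cells the count of 1 was 0 with a pseudocount of 0.1 CPM, a filter at 1 CPM, no filter or no variance trend, 2 with quantile scaling, 7 with array weights, 8 with only the TH1 libraries and 6 without the same pair of TH2 libraries. The mean KO effect had 0 members in place of 1 with no filter or no variance trend. The difference of the KO effects had 0 in place of 1 with a filter at 1 CPM, no filter or no variance trend, 2 with quantile scaling, 5 with array weights and 3 without that pair. Between control cells 1 member was called in place of 5 with no filter or no variance trend. Between KO cells the count stayed at 14 to 21 under these settings. Leaving out each library in turn gave 0 to 4 members called in TH2 cells, 0 to 2 in TH1 cells, 0 to 1 for the mean effect, 0 to 3 for the difference, 1 to 7 between control cells and 12 to 21 between KO cells. The medians then ranged between -0.51 and -0.27 in TH2 cells, 0.31 and 0.48 in TH1 cells, -0.11 and 0.05 for the mean effect, -0.92 and -0.64 for the difference, 0.12 and 0.27 between control cells and -0.71 and -0.46 between KO cells. Without TH2 Itgav KO library 2 the median was -0.27 in TH2 cells, -0.46 between KO cells and 0.05 for the mean effect, and without TH2 control library 1 it was 0.27 between control cells. No called change of a member turned round under an alternative, and 160 of 742 results of called members lost their call. Of the 20 calls between KO cells, 10 held under every alternative, while no call in any other comparison did. Some estimates that had not passed changed sign, such as that of Plk1 in TH2 cells (-0.27 to 0.22). Apart from the smaller sets of genes and libraries tested, the cause of these shifts was not tested.

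Over all genes tested, no variance trend gave 76 calls in place of 327 in TH2 cells, 29 in place of 77 in TH1 cells, 130 in place of 385 for the mean effect and 1 in place of 37 for the difference, while array weights gave 406, 603 and 85 calls in the last 3 of these. With only the TH1 libraries, 367 genes were called in TH1 cells. Without TH2 control 2 and TH2 Itgav KO 3 together, 198 genes were called in TH1 cells and 37 for the difference. Leaving out Rn45s was chosen after the data were seen and changed none of the 6 total counts of members, but between control cells it gave 4 members higher and 1 lower in place of 3 and 2, and the call of Birc5 was lost. Count models on the recovered reads, planned as 2 alternatives, were not run. With the replicate number as a block, 1 member was called in TH2 cells, 0 in TH1 cells, 0 for the mean effect, 0 for the difference, 3 between control cells and 20 between KO cells. Libraries with the same number did not deviate together (correlations of -0.07 to 0.03), and none correlated best with its own number.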

Other observations

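Averaged over both subsets, Fzr1, the activator of the anaphase promoting complex that works in late mitosis and G1, averaged 57.9 CPM in TH2 Itgav KO cells, against 36.6 CPM in TH2 control cells, and 57.2 CPM in TH1 Itgav KO cells, against 34 CPM in TH1 control cells, a mean KO effect of 0.69 ± 0.18 (adjusted p = 0.032 by limma). Nsl1, a subunit of the MIS12 complex of the kinetochore, averaged 35.3 CPM in TH2 Itgav KO cells, against 14.6 CPM in TH2 control cells, and 41.7 CPM in TH1 Itgav KO cells, against 27.1 CPM in TH1 control cells (0.98 ± 0.24, adjusted p = 0.0247). Fzr1 and Nsl1 were the 2 genes called among the 83 further genes of mitosis in this comparison, beside 2.18% of all genes tested called higher. Anapc11, the catalytic RING subunit of the anaphase promoting complex, was lower in TH2 than in TH1 cells with and without αv, at 154 against 298 CPM in Itgav KO cells (-0.94 ± 0.17, adjusted p = 0.000281) and 158 against 230 CPM in control cells (-0.54 ± 0.17, adjusted p = 0.0291). The 36 S phase genes summed to 3518, 2967 and 3468 CPM in TH2 Itgav KO libraries, against 3732, 4365 and 4520 CPM in TH2 control libraries, and to 5771, 5225 and 5215 CPM in TH1 Itgav KO libraries, against 4124, 4167 and 5188 CPM in TH1 control libraries.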
